A study of Mus musculus with 12 samples.

Results

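Venus-low follicular helper T cells (Tfh) were compared with CXCR5+ T helper (Th) cells of intermediate PD1, sorted from the lymph nodes of immunized mice. These were the 3 arrays titled Venus-low Tfh and the 2 titled PD1-intermediate Th, 5 of the 12 arrays of the series. Sources of all 12 arrays were labelled S1pr2V/+, with the fluorescent protein Venus as a reporter of S1pr2, and as given CGG in CFA under the skin 10 days earlier, although the design text also speaks of control mice. The labels do not say what the Venus allele does to S1pr2 itself. Venus-low Tfh were gated as CD4+ CXCR5+ PD1-high CD44-high Dump- cells with low Venus, from pools of 4, 6 and 4 mice. PD1-intermediate Th were gated as CD4+ CXCR5+ CD44-high Dump- cells with intermediate PD1, from pools of 4 and 4 mice, and their gate did not use Venus. The comparison therefore differs in the PD1 gate and in the Venus gate together, and these cannot be told apart. The remaining arrays held Venus-high Tfh with an otherwise equal gate (3), CXCR5-low PD1-low CD44-high Th (2) and splenic naive CD4+ T cells gated as CD44-low CD62L-high (2). They entered the fit so that all arrays shared 1 estimate of the spread, and they also helped to fit the array sets described below. The labels do not say whether pools came from separate mice, so p-values measure the spread between these samples, and the small number of arrays limits the precision.

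Tfh are CD4+ T cells that enter B cell follicles through the chemokine receptor CXCR5 and give germinal centre B cells help through CD40 ligand, IL-4 and IL-21. PD1, an inhibitory receptor encoded by Pdcd1, is highest on the Tfh inside germinal centres and lower on CXCR5+ helper cells at the border of T cell zone and follicle. Ascl2 is a basic helix-loop-helix transcription factor that promotes CXCR5 expression in T cells, and S1pr2 encodes a sphingosine-1-phosphate receptor that helps to keep cells in germinal centres. All levels below are deposited log2 signals of 1 probe set per gene, and all differences are Venus-low Tfh minus PD1-intermediate Th in log2 units ± SE, so that 1 unit is a doubling. In bulk samples such as these, fewer cells that express a gene and less RNA per cell cannot be told apart.

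Ascl2, Lgals3, Nrbp2, Gal and Il4 were among the genes that were high in Venus-low Tfh, and Acvrl1, Adcy6 and Cdh13 were among those high in PD1-intermediate Th. The promoters of Ascl2, Il4, Lgals3 and Gal are shown because Ascl2 protein is of the class that binds E-boxes. Each is the 250 bases before the RefSeq start in GRCm38.p6, 5′ to 3′ on the gene's strand, with every match to the general E-box CANNTG in capitals. They are chr7:142969265-142969514 (minus strand) for Ascl2, chr11:53618666-53618915 (minus) for Il4, chr14:47373610-47373859 (plus) for Lgals3 and chr19:3414545-3414794 (minus) for Gal.
Ascl2: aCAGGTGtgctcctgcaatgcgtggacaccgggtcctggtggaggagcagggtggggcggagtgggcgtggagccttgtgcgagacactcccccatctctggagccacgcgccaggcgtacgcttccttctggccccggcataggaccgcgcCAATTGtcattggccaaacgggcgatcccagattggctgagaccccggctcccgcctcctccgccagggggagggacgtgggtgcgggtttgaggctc
Il4: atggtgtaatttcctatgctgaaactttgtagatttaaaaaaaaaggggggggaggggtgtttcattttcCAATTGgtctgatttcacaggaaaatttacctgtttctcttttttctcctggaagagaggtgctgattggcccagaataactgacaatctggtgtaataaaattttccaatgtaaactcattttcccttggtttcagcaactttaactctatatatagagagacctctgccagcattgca
Lgals3: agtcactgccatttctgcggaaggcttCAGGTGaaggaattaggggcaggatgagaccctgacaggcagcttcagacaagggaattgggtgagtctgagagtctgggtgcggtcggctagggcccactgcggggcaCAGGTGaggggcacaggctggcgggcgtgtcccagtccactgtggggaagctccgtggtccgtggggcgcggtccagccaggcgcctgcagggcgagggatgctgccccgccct
Gal: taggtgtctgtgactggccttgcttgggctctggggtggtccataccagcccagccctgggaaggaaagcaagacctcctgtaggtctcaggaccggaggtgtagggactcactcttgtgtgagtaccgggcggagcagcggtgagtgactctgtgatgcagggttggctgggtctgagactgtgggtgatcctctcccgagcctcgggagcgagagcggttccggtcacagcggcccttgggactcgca
For Il4 the more upstream of 2 RefSeq windows is shown. CANNTG occurred at 2 places in the Ascl2 promoter, 2 in Lgals3, 1 in Il4 and 0 in Gal, and the E-box CAGCTG, itself a case of CANNTG, occurred in none of the 4. Both motifs read the same on either strand. Over windows of 300 bases (250 before to 50 after the start), CANNTG was in 63.2% of the 383 windows of genes that rose, 65.4% of the 237 windows of genes that fell and 63.4% of the 10346 windows of all genes tested. CAGCTG was in 15.7%, 14.8% and 14.5% of them, and in 16.3% of all 32851 windows of the table, in which CANNTG was in 72.3%. RefSeq windows were matched by symbol for 315 of the 393 genes that rose and 180 of the 238 that fell. These shares describe letters in a window and not binding.

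The arrays fell into 3 sets by the quantiles of their deposited values, with upper quartiles of 8.50 to 8.55 in set 1, 8.68 to 8.76 in set 2 and 9.39 to 9.42 in set 3. Both PD1-intermediate arrays and Venus-low Tfh array 3 were in set 3, whereas Venus-low Tfh arrays 1 and 2 were in sets 1 and 2. The labels do not name these sets. Fitting the array set beside the group moved the median difference over all genes from -0.40 to -0.01. Venus-low Tfh array 3 then had a weight of 0.581 in the Venus-low mean, array 2 of 0.238 and array 1 of 0.181. Through the array sets the other groups also had weights in the difference. These were -0.152, -0.0952 and 0.248 for Venus-high Tfh arrays 1, 2 and 3. For PD1-low Th arrays 1 and 2 they were -0.171 and 0.171. A fitted difference can therefore exceed every gap between arrays of the 2 groups, as for Stfa3, Csf1, Penk, Nt5e, Slc16a1 and Idi1. Over all probe sets Venus-low Tfh array 3 correlated at 0.990 and 0.987 with the PD1-intermediate arrays, and at 0.963 and 0.872 with Venus-low Tfh arrays 1 and 2. In set 2, 3315 of 45101 probe sets lay more than 3 log2 units away from both other sets in 1 direction, among them those that stood for 507 of the genes tested.

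Of 9893 genes tested, 631 passed an adjusted p of 0.05 in limma's moderated test with the array set in the fit, which is 6.38%. Of these, 393 rose in Venus-low Tfh (3.97%) and 238 fell (2.41%). All 3 Venus-low arrays lay above both PD1-intermediate arrays for 233 of the genes that rose (2.36%) and below both for 228 of those that fell (2.3%). Over all genes, called or not, 5.86% lay wholly above and 34.4% wholly below. Venus-low Tfh arrays 1 and 2 had upper quartiles of 8.50 and 8.73. Venus-low Tfh array 3 and both PD1-intermediate arrays had 9.39 to 9.40. The part of this in the 34.4% was not tested. Without the array set in the fit 56 genes passed (0.566%), 35 higher (0.354%) and 21 lower (0.212%), all of them among the 631 and in the same direction. Of the 80 called genes named by the rules given below, 22 kept their call without the array set, 57 lost it and 1 turned. The counts rested on single arrays of both groups. They were 380 and 249 without Venus-low Tfh arrays 1 and 2, 5 without array 3, and 115 and 35 without PD1-intermediate arrays 1 and 2. All 631 kept their direction in each of these fits.

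The genes of the sort did not pass the test. S1pr2 was at 10.68, 9.86 and 10.21 in Venus-low Tfh and at 9.33 and 9.28 in PD1-intermediate Th, a difference of 0.90 ± 0.44 (adjusted p = 0.281). Pdcd1 was at 13.87, 13.85 and 14.40 against 13.17 and 12.59, a difference of 1.48 ± 0.48 (adjusted p = 0.12). For both genes every Venus-low array lay above both PD1-intermediate arrays, and neither passed the test. Cxcr5 (0.14 ± 0.40), Cd44 (0.06 ± 0.17) and Cd4 (0.01 ± 0.12), positive in both gates, had adjusted p of 0.89 to 0.972.

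The other cells that the gates could hold were checked by their markers. CD4 T cell markers were high on every array, and 0 of the 11 tested passed the test, with 1 at an unadjusted p under 0.05. Their summed linear signal was 162518 to 189398 in Venus-low Tfh and 202228 to 204052 in PD1-intermediate Th. The myeloid genes Lyz2, Csf1r, Itgam and Cd14 were below log2 5 on all 5 arrays, as were 15 of 16 measured myeloid markers. Cd68, the other one, rose by 1.80 ± 0.40 (adjusted p = 0.0492), and the summed myeloid signal was 368 to 516 against 146 to 184. The B cell genes Ms4a1 and Cd79a were below log2 5 on all 5 arrays, as were 7 of 15 measured B and plasma cell markers. Others were bright, with Cd22 at 12.28, 10.60 and 11.66 against 10.13 and 9.32 (1.82 ± 0.56, adjusted p = 0.108). Cd74 was at 9.45, 10.60 and 11.23 against 10.87 and 10.38. Cd79b was at 2.61, 5.90 and 6.64 against 6.65 and 6.68. Jchain, of secreted antibody, was at 4.42, 4.98 and 8.33 against 3.03 and 3.04, and Sdc1, a plasma cell surface proteoglycan, rose by 1.66 ± 0.27 (adjusted p = 0.0247). Jchain was thus well up only on Venus-low Tfh array 3, with a difference of 4.36 ± 0.98 (adjusted p = 0.0488). Ighm, of the antibody heavy chain, had 7 kept probe sets that disagreed. The brightest, which stood for the gene, differed by -0.11 ± 0.17 and another by 0.14 ± 0.20. The other 5 differed by 5.42 to 7.27, at unadjusted p of 0.0114 to 0.0174. Their signals ran from 12.21 to 14.05, 10.79 to 12.84 and 12.89 to 14.46 in Venus-low Tfh, and from 8.22 to 10.90 and 2.33 to 6.90 in PD1-intermediate Th. These 5 thus lay higher on all 3 Venus-low arrays, and higher on PD1-intermediate array 1 than on array 2. The summed B and plasma cell signal, 8306 to 13042 against 8777 to 9121, holds only the brightest Ighm probe set, so its overlap leaves these 5 out. Among markers of CD8 T, gamma delta T and NK cells, 8 of 11, with Cd8a, Cd8b1 and Ncr1 among them, were below log2 5 on all 5 arrays. Klrd1, which encodes the killer cell receptor chain CD94, fell by 2.65 log2 units (SE 0.53, adjusted p = 0.0378), and the summed signal was 77.9 to 344 against 413 to 693. Of 12 measured stromal, endothelial and red cell markers 11 were below log2 5 on all 5 arrays, and the sums overlapped at 155 to 296 against 292 to 295. The part of these cells in the results below was not tested.

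Ascl2 was at 9.47, 7.83 and 10.58 in Venus-low Tfh and at 2.95 and 2.37 in PD1-intermediate Th. Every Venus-low array was far above both others, and the PD1-intermediate signals lay in the range of probe sets that are not above background. The difference was 7.19 ± 0.62 (adjusted p = 0.00807, and 0.00921 without the array set), and a second Ascl2 probe set gave 5.95. With signals under log2 5 raised to 5, the Venus-low level of Ascl2 was at least 19.6-fold the other. This floor stands in for the background, since no detection calls were used, and all folds given as "at least" use it.

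Il4, the type 2 cytokine that Tfh deliver to germinal centre B cells, was at 10.64, 10.98 and 12.30 against 7.76 and 5.49. Unlike Ascl2, Il4 gave a signal above log2 5 on both PD1-intermediate arrays, and these differed from each other by more than the Venus-low arrays did. The difference was 5.34 ± 0.76 (adjusted p = 0.0176, and 0.035 without the array set). Lgals3, which encodes the carbohydrate-binding protein galectin-3, was at 10.52, 11.32 and 10.62 against 2.86 and 3.22. Its Venus-low arrays were close together whatever their set, and the difference of 7.59 ± 0.37 had an adjusted p of 0.00171, or 5.42e-05 without the array set. Lgals3 was at least 56.5-fold higher. Of the myeloid markers, 15 of 16 were below log2 5 on these arrays, while Cd68 was at 8.58, 8.08 and 8.79 against 6.82 and 6.21, and their part in the Lgals3 result was not tested. Gal, which encodes galanin, a neuropeptide, was at 8.45, 6.69 and 11.19 against 2.12 and 2.16. Its Venus-low arrays spread more widely than those of Ascl2, and the difference was 7.51 ± 1.05 (adjusted p = 0.0173), at least 13.7-fold. Galanin and Penk, the precursor of enkephalin, were the 2 of 8 tested genes of neuropeptides and their receptors that rose. That share is 25%, against 3.97% of all genes. In this list 0 fell, but 4 were lower at an unadjusted p under 0.05, and the median difference was -0.34. The arrays of Penk overlapped between the groups.

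In 14 of the 15 largest rises with non-overlapping arrays, Il4 being the exception, both PD1-intermediate arrays were below log2 5. Their fitted differences therefore depend on how low the background reads, and the bounds do not follow the same order. Stfa3, a stefin that inhibits cysteine proteases, was at 9.47, 9.66 and 11.94 against 2.48 and 2.76. Its fitted difference of 9.85 ± 1.40 (adjusted p = 0.0176) exceeds the gap between any of these arrays. Without the array set the difference was 7.74 (adjusted p = 0.116). Stfa3 was at least 40.9-fold higher, below the bound of Lgals3. It belongs to a family of near-identical genes, so its probe set may read several of them. Nrbp2, which encodes a pseudokinase, was at 10.06, 8.72 and 10.49 against 3.54 and 3.49, a difference of 6.74 ± 0.38 (adjusted p = 0.00254). It was at least 27.0-fold higher. Cxxc5, of a CXXC zinc finger protein, was at 8.50, 8.54 and 10.62 against 3.76 and 3.50, at least 18.7-fold, but its other probe set differed by 0.78. Dock4, which encodes an activator of Rac GTPases, differed by 5.52 ± 0.75 (adjusted p = 0.0164) and was at least 8.07-fold higher. Its other probe sets differed by 4.79 and 1.11. The remaining rises had lower bounds than Dock4. Cc2d2a, of the base of cilia, was at least 6.20-fold higher, Vat1l at least 6.91-fold, the metallothionein gene Mt1 at least 4.85-fold and Plek, of a substrate of protein kinase C, at least 4.69-fold. Shtn1 was at least 3.17-fold higher, Nrgn, of a calmodulin-binding protein, at least 2.90-fold, and D430019H16Rik at least 2.73-fold. Of the 15, 7 also passed without the array set.

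**Figure D1:**
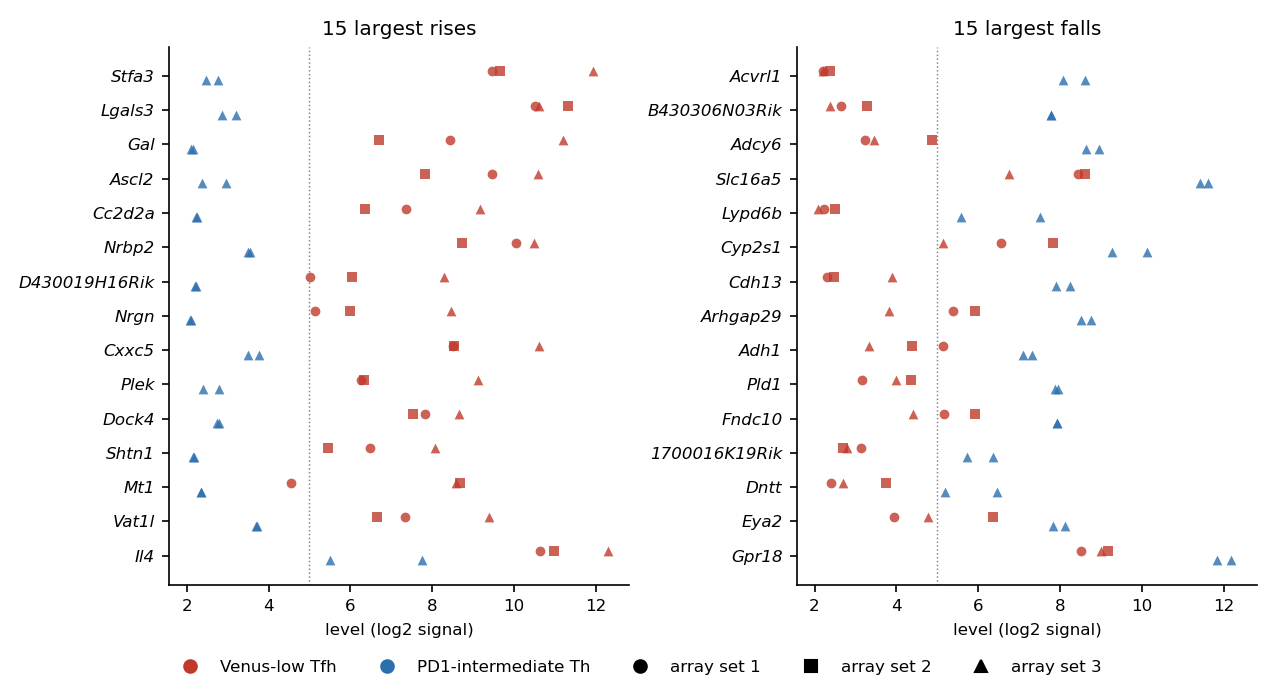
Deposited log2 signals (horizontal axes) of the 15 genes with the largest rises (left) and the 15 with the largest falls (right) among called genes with non-overlapping arrays. Red marks are the 3 Venus-low Tfh arrays, blue marks the 2 PD1-intermediate Th arrays, the shape of a mark gives the array set, and the dotted line is log2 5. For 14 of the 15 rises both blue marks are left of the line, and for 8 of the 15 falls all red marks are.

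Acvrl1, the fall with the lowest adjusted p of the 15, encodes ALK1, a type I receptor of the TGF-beta family known from endothelial cells, where it answers to BMP9 and BMP10. Acvrl1 was at 2.20, 2.39 and 2.21 in Venus-low Tfh and at 8.07 and 8.60 in PD1-intermediate Th. The Venus-low arrays were all near the lowest signals of the array, and both PD1-intermediate arrays lay far above them. The difference was -5.86 ± 0.38 (adjusted p = 0.00269, and 0.000285 without the array set), and Acvrl1 was at least 10.1-fold lower, a smaller bound than that of Adcy6 below. A second Acvrl1 probe set differed by -2.69. Of the endothelial markers, Cdh5 and Kdr were below log2 5 on all 5 arrays, while Pecam1, which T cells also express, was at 6.21, 7.05 and 7.94 against 7.94 and 7.90. Their part in the Acvrl1 result was not tested.

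Adcy6, which encodes an adenylyl cyclase that makes cyclic AMP, was at 3.24, 4.88 and 3.47 against 8.64 and 8.94. The groups did not overlap, and the difference of -5.20 ± 0.50 (adjusted p = 0.00862) was at least 13.9-fold. Cdh13, of the membrane-anchored T-cadherin, was at 2.32, 2.47 and 3.90 against 8.24 and 7.90. It was at least 8.39-fold lower in Venus-low Tfh (-3.96 ± 0.37, adjusted p = 0.00862). Pld1, a phospholipase D, was at least 7.54-fold lower and differed by -3.58 ± 0.44 (adjusted p = 0.0134). Gpr18, a G protein-coupled receptor of lymphocytes, was well expressed on both sides, at 8.50, 9.17 and 9.0 against 11.84 and 12.18. It fell by 3.06 log2 units (SE 0.37, adjusted p = 0.0134, and 0.012 without the array set). The other falls with some Venus-low signal above log2 5 were those of the monocarboxylate transporter family gene Slc16a5 (-4.49), the cytochrome P450 gene Cyp2s1 (-4.22), Arhgap29 (-3.80), the alcohol dehydrogenase gene Adh1 (-3.74), Fndc10 (-3.16) and Eya2 (-3.09). Those with all Venus-low signals below it were B430306N03Rik (at least 6.82-fold lower), Lypd6b (2.92-fold), 1700016K19Rik (2.07-fold) and Dntt of terminal transferase (1.77-fold). The other Dntt probe sets differed by -1.56 and -0.14. Of the 15 largest falls, 10 also passed without the array set.

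**Figure D2:**
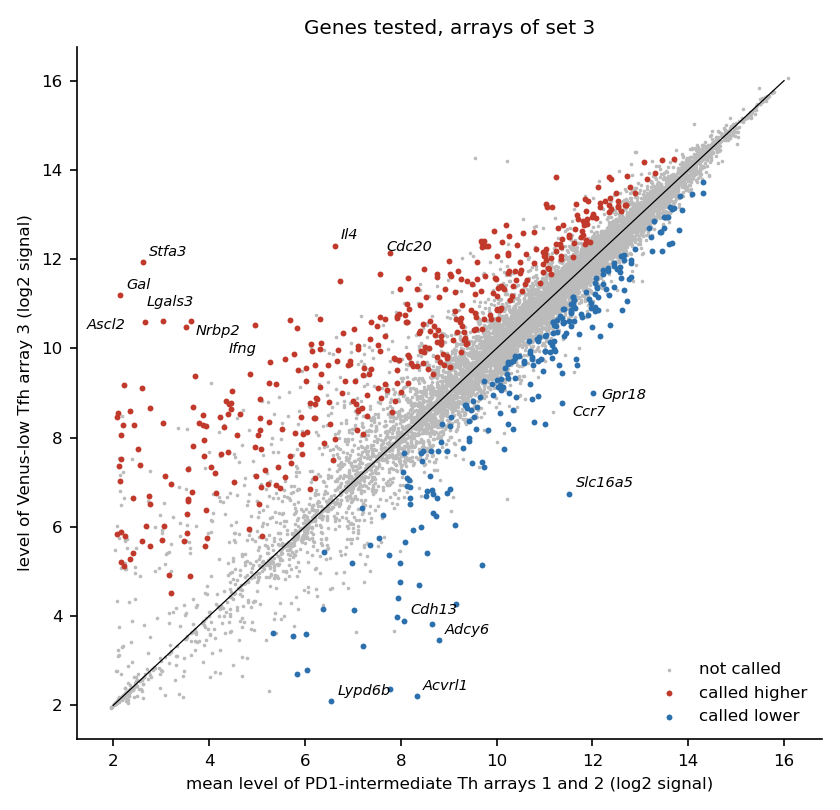
Level of each of the 9893 genes tested on Venus-low Tfh array 3 (vertical) against its mean over the 2 PD1-intermediate arrays (horizontal), in log2 signal, for arrays of the same set. Red and blue points are the 393 genes called higher and 238 called lower in the fit of all arrays, grey points are the rest, and the line marks equal levels. Lgals3, Gal, Ascl2, Nrbp2 and Stfa3 lie at the upper left and Acvrl1 and Adcy6 at the lower right.

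Transcription factors linked to Ascl2 were examined as a list of E proteins, Id inhibitors and related factors, of which 8 of 16 were tested. Ascl2 and Bhlhe40 rose (25%, against 3.97% of all genes), and 0 fell, with 1 lower at an unadjusted p under 0.05. Ascl2, Il4 and Acvrl1 had been set beforehand as markers of this comparison. The shares of lists that hold them, here and below, include these calls. Bhlhe40, a basic helix-loop-helix repressor, was at 10.04, 10.74 and 12.13 against 8.47 and 7.07. Its arrays did not overlap, and the difference of 4.46 ± 0.42 (adjusted p = 0.00862) was not called without the array set (adjusted p = 0.223). The E proteins Tcf3, Tcf4 and Tcf12, the partners of Ascl2 on DNA, differed by 0.18 ± 0.26, 0.26 ± 0.47 and -0.10 ± 0.15. Their inhibitors Id2 and Id3 differed by 0.59 ± 0.24 and 0.03 ± 0.16, and none of these 5 genes passed the test (adjusted p 0.195 to 0.952). Tcf3 was at 3.25, 4.59 and 3.78 against 3.40 and 3.40, below log2 5 on every array of both groups. Its difference thus gives no reading of Tcf3 above background. Lyl1, of the same class, was at 4.75, 4.66 and 5.17 against 7.80 and 6.70, and its difference of -1.81 ± 0.62 had an adjusted p of 0.138.

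Of 30 tested genes of the Tfh programme, 7 rose, which is 23.3% against 3.97% of all genes. Ascl2 and Il4, markers of this comparison, are among the 7. In this list 0 fell, with 0 lower at an unadjusted p under 0.05. The median difference of the 30 was 0.47, against -0.01 over all genes. Without the array set 3 of the 7 were called, Ascl2, Il4 and Rgs16, and the median was -0.04 against -0.40 over all genes. Sostdc1, which encodes a secreted inhibitor of BMP and Wnt signals, was at 9.09, 9.12 and 10.66 against 7.02 and 5.60, a difference of 4.17 ± 0.52 (adjusted p = 0.0138). Rgs16, a regulator that shortens G protein signals, was at 9.12, 8.72 and 8.82 against 5.25 and 3.48, and rose by 4.10 ± 0.61 (adjusted p = 0.019). Gpm6b, Tox and Pou2af1, a coactivator that B lineage cells also express, made up the rest. Tox was at 10.72, 11.48 and 13.09 against 11.95 and 11.76, so its arrays overlapped. Its call rested on the array set term, without which the difference was -0.09. Bcl6 (0.23 ± 0.20), Icos (-0.05 ± 0.26), Maf (0.35 ± 0.48) and Sh2d1a (0.10 ± 0.14) are named after their values were seen. None of these 4 passed the test (adjusted p 0.551 to 0.948).

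Of 13 tested helper cytokines 0 fell, with 2 lower at an unadjusted p under 0.05. The 4 that rose were 30.8% of the list, against 3.97% of all genes. Beside Il4, a marker of this comparison, these were Csf1, Ifng and Lif. Csf1, the growth factor of macrophages, was at 7.68, 7.57 and 9.43 against 4.84 and 4.85. The difference was 4.72 ± 0.43 (adjusted p = 0.00824, and 0.214 without the array set). Its other probe sets differed by 2.11 and 1.94. Ifng, the Th1 cytokine interferon gamma, was at 7.01, 8.50 and 9.70 against 5.42 and 5.13, and rose by 4.48 ± 0.74 (adjusted p = 0.026, and 0.361 without the array set). Neither gene's arrays overlapped between the groups. Lif, an IL-6 family cytokine, rose by 2.20 ± 0.43 (adjusted p = 0.036). Il21, the other main Tfh cytokine, was high in both, at 10.63, 10.95 and 12.47 against 11.59 and 11.09. Its groups overlapped, and the difference was 0.87 ± 0.39 (adjusted p = 0.246). Il2, which restrains Tfh formation, was at 2.42, 5.25 and 5.0 against 6.75 and 6.89. Every Venus-low array was below both PD1-intermediate arrays, as for 34.4% of all genes. The Il2 difference of -2.08 ± 0.75 did not pass (adjusted p = 0.156).

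Among 10 tested factors and receptors of type 2 responses, Nfil3 alone was called (10%, against 6.38% of all genes). Nfil3, a bZIP repressor, was at 9.56, 8.92 and 10.20 against 7.88 and 6.84, and rose by 2.82 ± 0.36 (adjusted p = 0.0138, and 0.135 without the array set). The Il4 difference was thus measured beside 1 of 10 calls in this list, and 4 of the 10 were higher at an unadjusted p under 0.05.

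Of 23 tested TGF-beta family receptors, ligands and Smads, 0 rose, with 2 higher at an unadjusted p under 0.05. The 4 that fell were 17.4% of the list, against 2.41% of all genes. All 4 were receptors, and Acvrl1 among them was a marker of this comparison. Besides Acvrl1 they were Tgfbr3, or betaglycan, at 9.12, 9.87 and 10.86 against 12.17 and 12.06 (-1.31 ± 0.27, adjusted p = 0.0387). Acvr1b, an activin receptor, was at 9.72, 9.87 and 9.73 against 10.85 and 10.89 (-0.98 ± 0.19, adjusted p = 0.0373). Tgfbr2, the TGF-beta binding receptor, was at 12.80, 12.83 and 13.18 against 13.56 and 13.66 (-0.45 ± 0.10, adjusted p = 0.0486). In each of these the 3 Venus-low arrays were below both PD1-intermediate arrays, as for 11 of the 23 tested and 34.4% of all genes. Only Acvrl1 was also called without the array set. The signalling partner Tgfbr1 differed by 0.05 ± 0.19 and the transducers Smad2 and Smad3 by 0.04 ± 0.19 and -0.26 ± 0.11, none of them past the test. The ligand gene Tgfb1 differed by 0.48 ± 0.11 (adjusted p = 0.0562), just outside the threshold, and Tgfbr2 was just inside it. The arrays of Tgfb1 overlapped between the groups, and its second probe set differed by -0.18. The median of the list was -0.07.

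**Figure D3:**
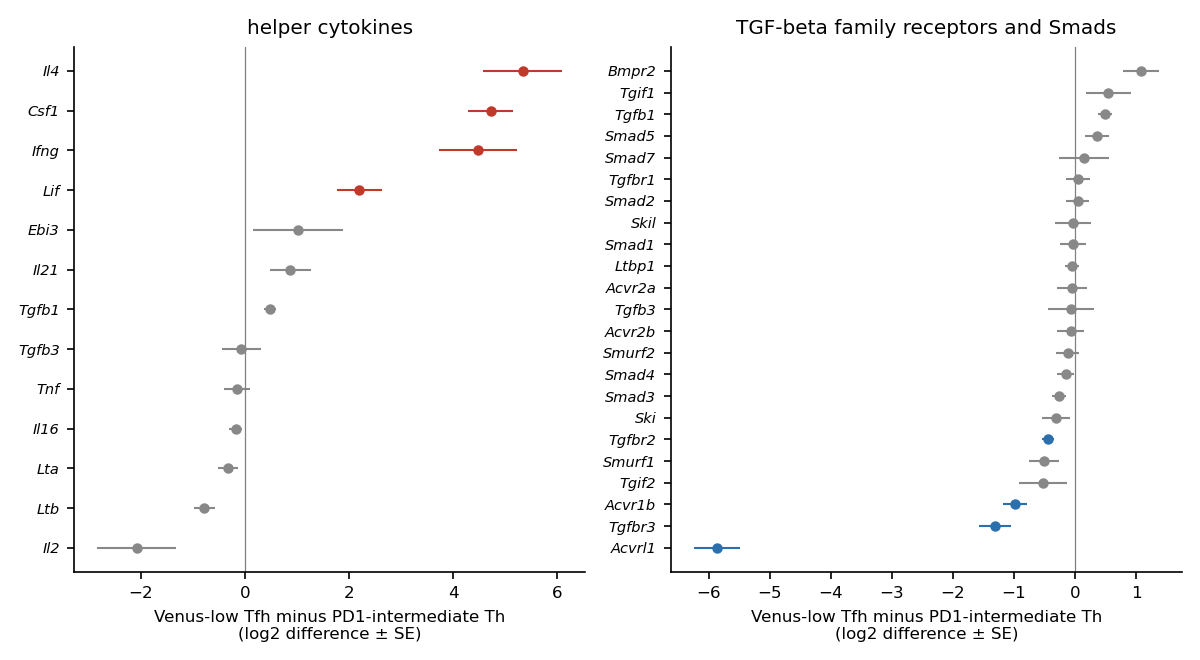
Difference between Venus-low Tfh and PD1-intermediate Th ± SE (log2 units, fit with the array set) for the tested helper cytokines (left) and TGF-beta family receptors, ligands and Smads (right). Red points were called higher, blue points called lower and grey points not called. Il4, Csf1, Ifng and Lif are the red points, and Acvrl1 lies at -5.86, beyond Tgfbr3 at -1.31.

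Genes of cyclic AMP signalling and of G protein control changed in both directions. Of 19 tested genes of cyclic nucleotides 3 fell and 1 rose, so 21.1% were called against 6.38% of all genes. Beside Adcy6, the phosphodiesterases that break down cyclic AMP, Pde4d (-0.89 ± 0.19, adjusted p = 0.0418) and Pde3b (-0.84 ± 0.14, adjusted p = 0.0251), fell. A second Pde4d probe set differed by only -0.0044. Prkar1a, the regulatory subunit of protein kinase A, rose by 0.57 ± 0.12 (adjusted p = 0.0418). Of 9 tested RGS genes Rgs16 rose and Rgs14 fell, at 9.52, 9.35 and 9.81 against 10.80 and 10.68 (-1.05 ± 0.14, adjusted p = 0.015). Without the array set Adcy6 and Rgs16 kept their calls, whereas Pde4d, Pde3b, Prkar1a and Rgs14 lost theirs (adjusted p 0.319, 0.173, 0.537 and 0.0552). The array medians of the cyclic nucleotide genes ran from 9.43 to 11.10 in Venus-low Tfh and from 10.45 to 10.52 in PD1-intermediate Th, so as a list they overlapped.

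Of 18 tested receptors for chemokines and other positioning cues, Cxcr4 rose and Ccr7 fell, which is 11.1% called against 6.38% of all genes. Ccr7, which draws T cells to the T cell zone, was at 8.31, 9.76 and 8.77 against 10.82 and 11.91. Its groups did not overlap, with 34.4% of all genes lying wholly below. Ccr7 fell by 2.29 log2 units (SE 0.47, adjusted p = 0.0392, and 0.065 without the array set). Cxcr4, which guides cells to the dark zone of germinal centres, was at 13.34, 12.99 and 13.86 against 12.83 and 12.61 (1.07 ± 0.18, adjusted p = 0.0267, and 0.67 at 0.565 without the array set). S1pr2 belongs to this list too, with the values given above. Cdh13 was the 1 of 20 tested integrins and cadherins that was called, a share of 5% against 6.38% of all genes.

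Of 13 tested inhibitory receptors and ligands, 3 rose and 1 fell, so 30.8% were called against 6.38% of all genes. Cd160, a receptor of HVEM, was at 11.01, 10.63 and 11.94 against 10.03 and 9.15 (2.24 ± 0.39, adjusted p = 0.0286). Pdcd1lg2, a ligand of PD1, and Lag3, a receptor of MHC class II, rose by 2.05 ± 0.33 and 1.88 ± 0.38 (adjusted p 0.0236 and 0.038), but their arrays overlapped between the groups. Cd96, a receptor of the nectin family, fell, at 12.76, 12.47 and 12.34 against 13.58 and 13.62 (-1.18 ± 0.19, adjusted p = 0.0253). None of these 4 was called without the array set. Of 16 tested costimulators of the CD28 and TNF families 0 were called by limma, with 2 at an unadjusted p under 0.05. Tnfsf8, the ligand of CD30, had the smallest p of these (1.88 ± 0.50, adjusted p = 0.0754), followed by Tnfsf9 (1.68 ± 0.53, adjusted p = 0.114). Of 8 tested SLAM receptors and adaptors 0 were called, with 0 at an unadjusted p under 0.05.

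Genes of cell division were the lists with the highest share of calls among those of at least 3 tested genes. Of 39 tested mitosis genes 19 rose and 0 fell, which is 48.7% against 3.97% of all genes rising, and 37 were higher at an unadjusted p under 0.05. All 39 had a difference above 0, with a median of 2.44. For 29 of them every Venus-low array lay above both PD1-intermediate arrays, as for 5.86% of all genes. Only 2 of the 19, Cdc20 and Cdca8, were also called without the array set, where the median was 1.55 against -0.40 over all genes. Cdc20, an activator of the anaphase-promoting complex that is named after its values were seen, was at 11.32, 11.24 and 11.95 against 9.33 and 8.67 (2.75 ± 0.28, adjusted p = 0.00879). Plk1, a mitotic kinase, was at 7.64, 9.78 and 10.00 against 6.84 and 5.79 (3.42 ± 0.77, adjusted p = 0.0492). Hmmr, of the spindle, was at 11.97, 11.50 and 12.64 against 10.51 and 9.38 (2.90 ± 0.61, adjusted p = 0.0426). The ubiquitin-conjugating enzyme gene Ube2c (2.92 ± 0.51, adjusted p = 0.0288) and the kinesin gene Kif20a (2.92 ± 0.63, adjusted p = 0.0444) also rose, with arrays that overlapped. By array, the median level of the 39 genes was 10.45, 10.72 and 11.95 in Venus-low Tfh and 10.15 and 9.19 in PD1-intermediate Th. Array 1 of PD1-intermediate Th was thus near Venus-low Tfh array 1, whose set had the lowest upper quartiles. The 5 Ighm probe sets above also lay higher on PD1-intermediate array 1 than on array 2, and the part of antibody-secreting cells in these lists was not tested.

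Of 40 tested genes of DNA replication and S phase 14 rose, which is 35% against 3.97% of all genes. In this list 0 fell, and 32 were higher at an unadjusted p under 0.05. All 40 differences were above 0, with a median of 1.01, and 1 of the 14, Orc1, was also called without the array set. Orc1, of the origin recognition complex, was at 4.66, 6.24 and 6.65 against 2.61 and 2.21 (3.74 ± 0.50, adjusted p = 0.0156). Cdc45, of the replicative helicase, was at 8.91, 9.93 and 9.71 against 7.49 and 6.40 (2.91 ± 0.58, adjusted p = 0.0373). Pole, a DNA polymerase subunit, rose by 1.90 ± 0.42 (adjusted p = 0.0451) and E2f8, a repressor of the E2F family, by 2.00 ± 0.41 (adjusted p = 0.04, with overlapping arrays).

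Of 23 tested genes of glycolysis and the hypoxia response 0 fell, with 1 lower at an unadjusted p under 0.05. The list had 5 that rose, or 21.7% against 3.97% of all genes. These were the hexokinase gene Hk2 (2.62 ± 0.46), Bnip3 (1.55 ± 0.26), the triosephosphate isomerase gene Tpi1 (1.35 ± 0.25), the lactate transporter gene Slc16a1 (1.14 ± 0.22) and Pgam1. Of these 5, Tpi1 had arrays that did not overlap, at 13.80, 12.95 and 13.80 against 12.63 and 12.15. None of the 5 was called without the array set. Of 24 tested cholesterol genes 1 rose, Idi1 (1.04 ± 0.19, adjusted p = 0.0337), which at 4.17% of the list is near the share among all genes.

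Genes of naive and quiescent T cells lay the other way. Of 23 tested, 5 fell, which is 21.7% against 2.41% of all genes. In this list 0 rose, with 0 higher at an unadjusted p under 0.05, and 0 of the 23 differences were above 0. Their median was -0.51. Pik3ip1, an inhibitor of PI3 kinase, was at 9.44, 9.63 and 9.46 against 11.37 and 11.35 (-1.73 ± 0.19, adjusted p = 0.0118, and 0.017 without the array set). Treml2 was at 6.55, 7.28 and 7.43 against 8.97 and 10.01 (-2.14 ± 0.39, adjusted p = 0.0313). Actn1, of actin cross-linking, was at 11.47, 11.76 and 11.06 against 12.64 and 12.81 (-1.55 ± 0.22, adjusted p = 0.0176). The chromatin organizer Satb1 and Ccr7 were the other 2. Pik3ip1 and Treml2 were also called without the array set.

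Of 27 tested immediate early genes of T cell receptor signalling 4 rose, or 14.8% against 3.97% of all genes. In this list 0 fell, with 2 lower at an unadjusted p under 0.05. Nr4a2, an orphan nuclear receptor, was at 6.88, 7.04 and 8.65 against 4.73 and 4.18 (3.37 ± 0.54, adjusted p = 0.0247, and 0.0392 without the array set). Dusp4, a phosphatase of MAP kinases, was at 6.91, 8.42 and 9.57 against 7.10 and 7.37 and rose by 2.24 ± 0.22 (adjusted p = 0.00862). Its arrays overlapped, as did those of Nr4a3 (0.94 ± 0.20) and Egr3 (0.51 ± 0.11). The difference of Egr3 turned to -0.15 without the array set. In the lists of IL-2 and of IL-6 and IL-21 signalling the single gene called, Socs3, was in both. It was 5% and 6.25% of them, against 6.38% of all genes called. Socs3, an inhibitor of cytokine signals, was at 13.45, 12.51 and 12.18 against 13.43 and 13.48 and fell by 1.13 log2 units (SE 0.23, adjusted p = 0.0378). Its level on Venus-low Tfh array 1 was between the PD1-intermediate arrays.

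Genes of other helper cell types were called in small numbers. The shares that rose were 11.1%, 10.5% and 20% in the regulatory T cell, Th1 and Th17 lists, against 3.97% of all genes. Of 18 tested regulatory T cell genes 2 rose, the ectonucleotidase gene Nt5e (1.19 ± 0.24, adjusted p = 0.0394) and Penk (2.92 ± 0.65, adjusted p = 0.0468), both with overlapping arrays. Of 19 tested Th1 and cytotoxic genes 2 rose, Ifng and the zinc finger repressor gene Zeb2, at 6.29, 5.58 and 6.01 against 2.68 and 2.70 (3.14 ± 0.67, adjusted p = 0.0432). Of 10 tested Th17 genes 2 rose, the neighbouring membrane protein genes Tmem176a and Tmem176b. Tmem176b was at 11.54, 11.03 and 11.72 against 10.10 and 10.43 (1.54 ± 0.27, adjusted p = 0.0282). None of these 6 genes was called without the array set. Of 13 tested Bcl2 family genes and Fas, and of 23 tested type I interferon genes, 0 were called by limma. Unadjusted p-values were under 0.05 for 3 and 1 of them. The smallest p of each were those of Pmaip1, a promoter of apoptosis (3.50 ± 0.93, adjusted p = 0.0737), and Oas2, an antiviral enzyme gene (-1.66 ± 0.53, adjusted p = 0.117).

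**Figure D4:**
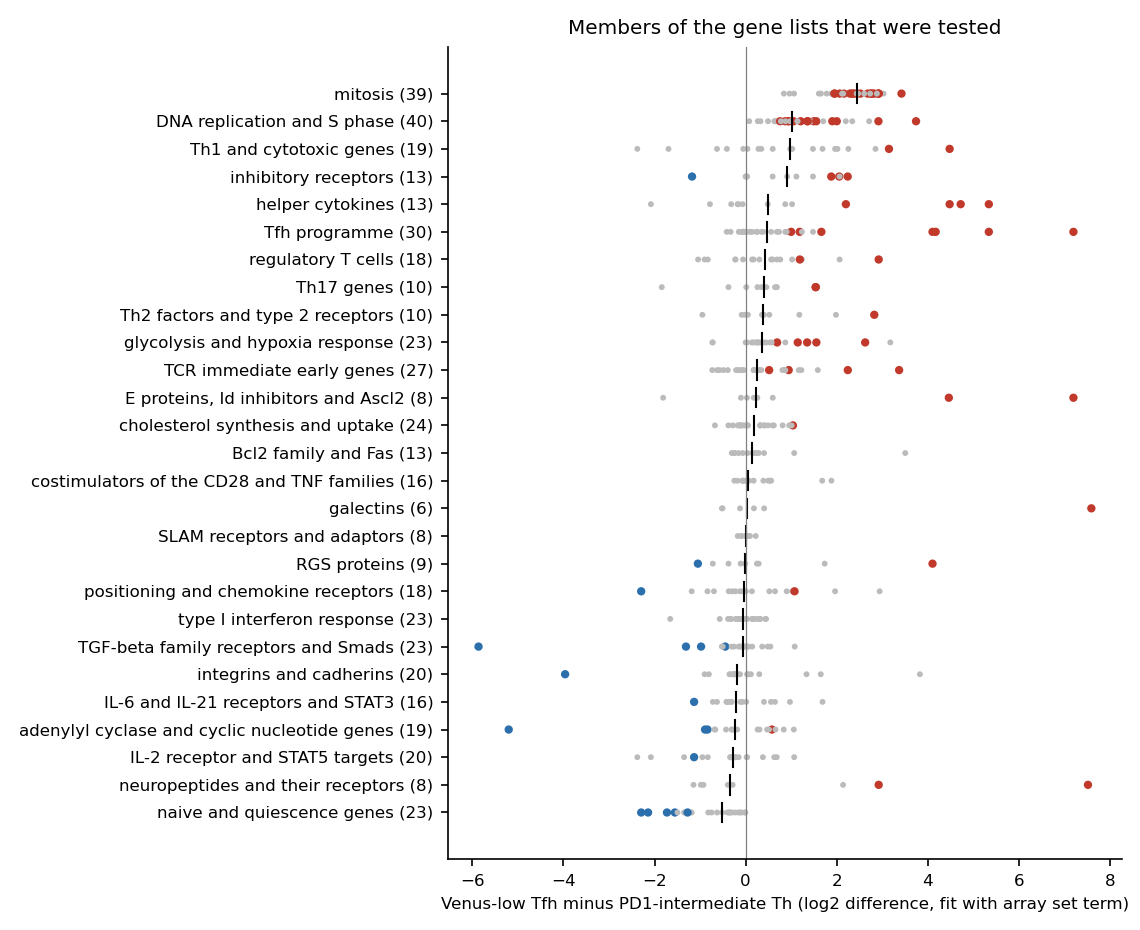
Difference between Venus-low Tfh and PD1-intermediate Th (log2 units, fit with the array set) of every tested member of 27 gene lists, with the number tested in brackets. Red and blue points are genes called higher and lower, grey points are not called, and the black bar is the list's median. The mitosis list has a median of 2.44 and the naive and quiescence list one of -0.51.

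The levels of the leading genes in the other 3 groups place this comparison in the series. Ascl2 was at 12.23, 11.91 and 12.68 in Venus-high Tfh, above every Venus-low array, and at 2.30 to 2.48 in PD1-low Th and naive cells, beside the PD1-intermediate levels of 2.37 and 2.95. Gal too had its highest levels in Venus-high Tfh, at 13.24, 12.45 and 13.62 in Venus-high Tfh. Il4 was at 11.39, 11.54 and 12.51 in Venus-high Tfh, a range that overlaps the Venus-low one, and at 2.01 to 3.03 in PD1-low Th and naive cells, under both PD1-intermediate arrays. Lgals3 was at 10.61, 9.68 and 9.81 in Venus-high Tfh, which also overlaps. Acvrl1 was at 2.18 to 2.34 in Venus-high Tfh, at 8.31 and 9.62 in PD1-low Th and at 8.41 and 8.51 in naive cells. For Acvrl1, PD1-intermediate array 2 at 8.60 thus lay among the PD1-low and naive arrays, and array 1 at 8.07 just below them. Adcy6 was higher still in PD1-low Th, at 10.56 and 10.37. Cdh13 had another pattern, at 2.49 and 5.31 in PD1-low Th and 2.32 and 2.51 in naive cells, so that both PD1-intermediate arrays exceeded every other array. These are levels on the same arrays that the fit used, and they were not tested as separate comparisons.

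**Figure D5:**
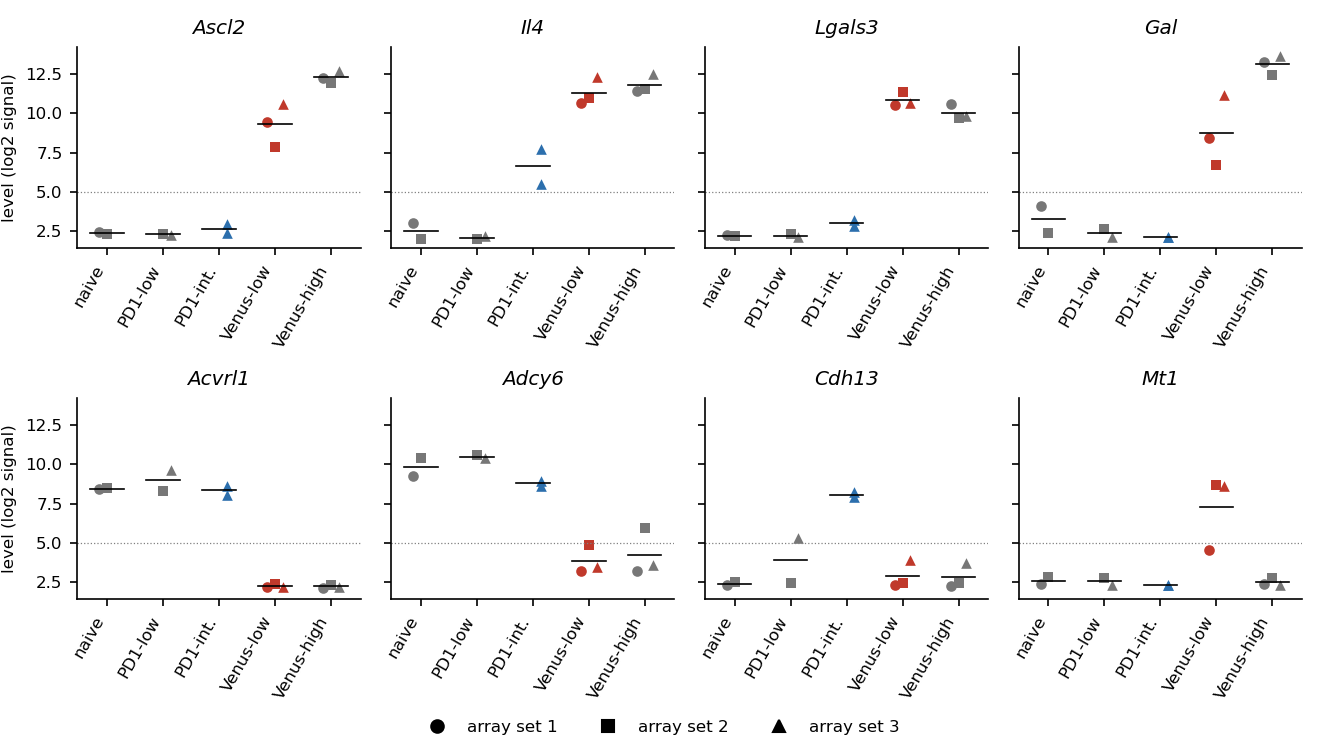
Deposited log2 signal (vertical axes) of 8 named genes on all 12 arrays in naive CD4+ T cells, PD1-low Th, PD1-intermediate Th (blue), Venus-low Tfh (red) and Venus-high Tfh. The shape of a mark gives the array set, the short bars are group means and the dotted line is log2 5. Ascl2 and Gal step up from Venus-low to Venus-high Tfh, Acvrl1 and Adcy6 are low in both Tfh groups, Cdh13 is high in PD1-intermediate Th, and Mt1 is above log2 5 on Venus-low Tfh arrays 2 and 3 alone.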

How the data were processed

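RNA was measured on 12 Affymetrix mouse arrays, from 20 ng of amplified total RNA per array, per the labels' protocols. The deposited values are log2 signals that the authors made with GCRMA, per the submitters' processing notes. Its version, and which arrays were normalized together, are not given in the sources used here. Of 45101 probe sets, 34958 had 1 gene symbol, 932 several and 9211 none. The last 2 kinds were not used. Probe sets under log2 5 on all or all but 1 array were dropped, and of those left the brightest on average stood for its gene. Array sets came from hierarchical clustering of array quantiles, cut into 3. limma 3.58.1 (R 4.3.3) fitted group and array set to all 12 arrays (5 residual degrees of freedom), with moderated tests, 2-sided and adjusted by Benjamini-Hochberg over all genes, at a threshold of 0.05. The fit was also run on data simulated from the same model, which cannot test that model's assumptions. Named genes are the 15 largest rises and 15 largest falls with non-overlapping arrays and no displaced probe set (shifted by over 3 in set 2), the sort genes, up to 4 called members of each of 32 lists (the 2 of smallest p where none was called) and any member of the E protein, cytokine, TGF-beta and marker lists. Genes given only as called, or said to be named after their values were seen, fall outside this. The comparison, lists and rules were chosen with earlier results of these data known. Alternatives changed the set term, arrays, replicate block, probe sets, filter, floor, normalization, variance model, weights and fold. Python 3.11.15 and matplotlib 3.10.9 drew the figures.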

Additional observations from a re-analysis of the deposited data

How the results depend on the processing

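Against 631 genes called (393 higher, 238 lower), the counts were 56 (35 and 21) without the array set, 2 (1 and 1) on the 5 arrays of both groups alone, 45 (43 and 2) on set 3 alone and 249 (112 and 137) without the filter on dim probe sets. They were 3792 (2042 and 1750) with array weights and 22 (17 and 5) against a fold of 2. With the set as a random block 382 genes were lower, of 900 called. Of 2 alternatives chosen after seeing the data, leaving out set 2 gave 344 (225 and 119), and quantile normalization without the set term gave 148 (117 and 31). Leaving out each array of the 2 groups in turn gave 5 to 380 called, 5 to 233 higher and 0 to 147 lower. The fit with 0 lower, without Venus-low Tfh array 3, had 596 genes lower at an unadjusted p under 0.05. Leaving out displaced probe sets, averaging probe sets, a filter of log2 6 on 3 arrays, a floor of 5, quantile normalization and a trended robust variance gave 603 to 909. Of the 631 genes, those tested (587 with the log2 6 filter, 625 without displaced probe sets and 631 otherwise) kept their direction in every fit except those without the set term (596 of 631, and 596 on the 5 arrays), with quantile normalization and no set term (620), with the floor (630) and with the replicate block (534). Egr3 turned to -0.15 both without the set term and on the 5 arrays alone. Lgals3 and Nrbp2 were called in 20 of 21 alternatives, Acvrl1 in 19, Ascl2 and Csf1 in 18, Gal in 15 and Il4 in 14. Signals under about log2 5 limit the folds to bounds, and the cause of these shifts was not tested.

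The labels do not say whether the replicate numbers pair the samples. Deviations from the group means correlated at -0.09 and 0.03 for arrays of the same number. Both PD1-intermediate arrays deviate from their mean by mirror-image amounts, so these correlations cannot decide on pairing. With the replicate block in place of the array set, 2757 genes were called, 204 higher and 2553 lower, with a median difference of -0.60 over all genes. The direction turned for some genes named by the rules above that were called in the main fit or under this block. They were Cd44 (-1.19), Tcf4 (-0.79), Tgfbr1 (-1.17), Smad2 (-1.15), Pdcd1lg2 (-0.35), Nr4a3 (-0.055), Egr3 (-0.48), E2f8 (-0.057), Slc16a1 (-0.12), Nt5e (-0.34) and Ebf1 (3.62). Of 67 genes named by the rules above and not called, 42 turned sign in at least 1 alternative and 23 without the set term. No direction is drawn from them. Tnfsf9 was at -0.71 and Id2 at -0.34 without the set term, and Pmaip1 at -0.79 and Il21 at -0.50 under the block. Probe sets averaged, Ighm went from -0.11 to 4.41.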

Other observations

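A few genes were higher in Venus-low Tfh than in each of the other 4 groups. They were chosen after their values were seen and are given as levels only. Mt1, a metallothionein that binds zinc and copper and whose probe set may read related metallothioneins, was at 4.55, 8.69 and 8.59 in Venus-low Tfh, at 2.36 and 2.36 in PD1-intermediate Th and at 2.38, 2.81 and 2.36 in Venus-high Tfh. Igfbp7, of a secreted binding protein of insulin-like growth factors, was at 4.62, 6.60 and 8.54, against 2.09 and 2.10 and against 2.51, 2.99 and 2.10 in the same order. Myadm, of a membrane protein, was at 5.23, 7.67 and 7.38, against 2.62 and 2.50 and against 2.58, 2.38 and 2.45. Zbtb32, a zinc finger repressor of lymphocytes, was at 5.08, 7.48 and 7.15, against 3.05 and 3.10 and against 2.23, 2.42 and 3.15. For all 4 genes Venus-low Tfh array 1 had the lowest of the Venus-low signals, and the naive and PD1-low arrays were below log2 5.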
